A study of Mus musculus with 12 samples.

Results

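The Bcl2 family of mitochondrial apoptosis is described here through 10 genes, taken by symbol from the 54735 gene symbols that each expression table lists. They were the pore-forming Bax, Bak1 and Bok, the BH3-only genes Bbc3, Pmaip1, Bid and Bcl2l11, and the anti-apoptotic Bcl2, Bcl2l1 and Mcl1, and all 10 were found in all 12 tables. RNA was sequenced from the pallium, the cortex-forming dorsal wall of the embryonic forebrain, of C57/Bl6 mouse embryos at E13.5. Control embryos were Rnu11wt/flx::Trp53wt/wt::Emx1-Cre+. The embryos called cKO were Rnu11flx/flx::Trp53wt/wt::Emx1-Cre+, and those called dKO were Rnu11flx/flx::Trp53flx/flx::Emx1-Cre+. Each genotype had 4 embryos. Rnu11 encodes the U11 small nuclear RNA, part of the minor spliceosome, and Trp53 encodes the transcription factor p53. Emx1-Cre deletes floxed alleles in pallial progenitors and their descendants, so vessels, blood cells and microglia in the same tissue keep theirs. The controls also carried Emx1-Cre and 1 floxed Rnu11 allele, and are therefore a heterozygous control. Trp53 loss is compared here only together with Rnu11 loss. The labels do not say whether the embryos came from separate litters, so p-values measure the spread between these 12 embryos. In bulk tissue, fewer cells of a type and less RNA per cell cannot be told apart.

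Proteins of the Bcl2 family decide whether the outer mitochondrial membrane stays intact. Bax and Bak1 assemble into pores that let cytochrome c escape, which then joins Apaf1 to form the apoptosome and activate caspases. Bcl2, Bcl2l1 (Bcl-xL) and Mcl1 bind and restrain the pore formers, and the BH3-only proteins sense damage or loss of survival signals and either occupy these guardians or activate the pore formers directly. In the developing cortex, neural progenitors and young neurons are known to depend on Mcl1 and Bcl2l1 for survival, and Bax, Bbc3 (Puma) and Pmaip1 (Noxa) are textbook transcriptional targets of p53.

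The promoter of Bax is shown because Bax was the most abundant family member and had the greatest change of the members above 1 TPM in both comparisons with cKO. The sequence is the 250 bases before the RefSeq transcription start on GRCm38.p6, chr7:45466899-45467148, minus strand, written 5′ to 3′. Capitals mark the 2 sites of 10 bases that together make a p53 full-site match.

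Bax promoter: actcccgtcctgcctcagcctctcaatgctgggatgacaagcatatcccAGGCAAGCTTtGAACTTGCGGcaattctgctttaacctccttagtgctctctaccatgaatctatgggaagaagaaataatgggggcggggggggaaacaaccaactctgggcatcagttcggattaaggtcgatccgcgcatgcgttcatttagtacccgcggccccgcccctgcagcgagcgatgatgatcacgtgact

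The match spans chr7:45467079-45467099, bases -201 to -181 from the start, with a spacer of 1 base, no mismatch in the first site and 2 mismatches in the second. Windows of 250 bases before to 50 bases after the start were searched for the single p53 site of 10 bases, a motif that is its own reverse complement, so that a search of either strand finds the same sites. A full site was taken as a pair of single sites with a spacer of 0 or 1 base and at most 2 mismatches. Mismatches were allowed only outside the central CWWG of each site, where W is A or T. RefSeq held 14 windows for 9 of the 10 family members, and 1 window, that of Bax, had a single-site and a full-site match. Of all 32851 promoter windows, 8.36% held the single site and 0.32% a full-site match. These matches describe letters in a window. They do not show binding, and a window without a match says nothing about p53 at that gene.

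The genotype labels were checked on the targeted genes. Rnu11 lay between 521 and 724 TPM (a transcript level scaled for gene length and to 1 fixed total per library) in control, between 115 and 159 in cKO, and between 142 and 199 in dKO. Trp53 lay between 2.63 and 6.37 TPM in control, between 3.92 and 4.83 in cKO, and between 0.920 and 1.49 in dKO. All 8 listed pallial markers were detected in every genotype. Nuclear protein-coding genes made up 14.6 to 16.3% of the TPM total in control, 16.1 to 19.99% in cKO and 14.4 to 15.5% in dKO. TPM values keep no sequencing depth, so the depth of the libraries is unknown and no counting interval is given.

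Most genes also moved together. Across the 11764 genes that averaged 1 TPM or more, the median gene differed on the log2(TPM + 1) scale by 0.25 (cKO against control), -0.01 (dKO against control) and -0.26 (dKO against cKO). The 8 family members that averaged 1 TPM or more were therefore fitted as deposited and after median-shift centring, which removes this common shift from each library. For Bbc3 and Pmaip1, which averaged less, the libraries were instead rescaled by their median ratio to the mean library. Protein-coding rescaling, which brings the protein-coding sum of every library to 1 level, removes a smaller part of the common shift. It leaves medians of 0.12, 0.04 and -0.08 in the same order. The plot of changes over all tested genes shows where the family members lie in the 3 distributions. All tests below are limma fits on log2(TPM + 1) across all tested genes, with Benjamini-Hochberg adjusted p-values and 0.05 as the threshold for a call.

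**Figure D1:**
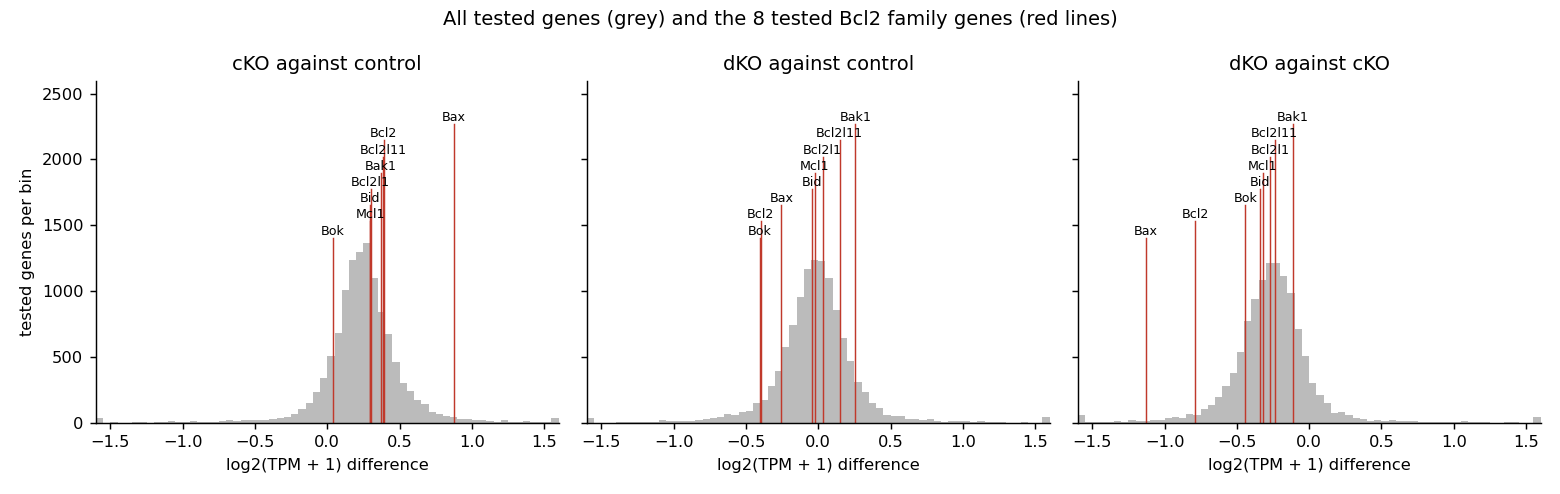
Histograms of the log2(TPM + 1) change of the 11764 genes that averaged 1 TPM or more in each of the 3 comparisons, with the x axis in log2 units, the y axis in genes, and marks at the Bcl2 family members tested. Changes beyond 1.6 in either direction are drawn in the end bins. The distribution of cKO against control is centred at 0.25 and that of dKO against cKO at -0.26, and Bax lies far out in both.

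The levels in control tissue spanned more than 2 orders of magnitude. Bax was the most abundant member at 29.0 ± 1.51 TPM (SD, n = 4), followed by Bcl2l1 at 11.3 ± 2.23, Mcl1 at 7.05 ± 0.784, Bok at 4.11 ± 0.586, Bak1 at 3.20 ± 0.533, Bcl2 at 2.63 ± 0.113, Bid at 1.57 ± 0.188 and Bcl2l11 at 0.910 ± 0.160. Bbc3 at 0.291 ± 0.09999 TPM and Pmaip1 at 0.101 ± 0.0418 TPM were the lowest. In this order, Bok and Bak1 were the only neighbours whose embryos overlapped in level. Bax alone made up 48.3% ± 1.89 of the summed TPM of the 10 genes in the controls, 56.6% ± 1.83 in cKO and 44.5% ± 4.51 in dKO (SD, n = 4 per genotype). In cKO, Bbc3 and Pmaip1 reached the level of Bcl2l11, and these neighbours overlapped. Bak1, Bok and Bcl2 also overlapped there as neighbours. In dKO, Bcl2 lay among the low members and overlapped Bid, and Pmaip1 and Bbc3 overlapped at the bottom.

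**Figure D2:**
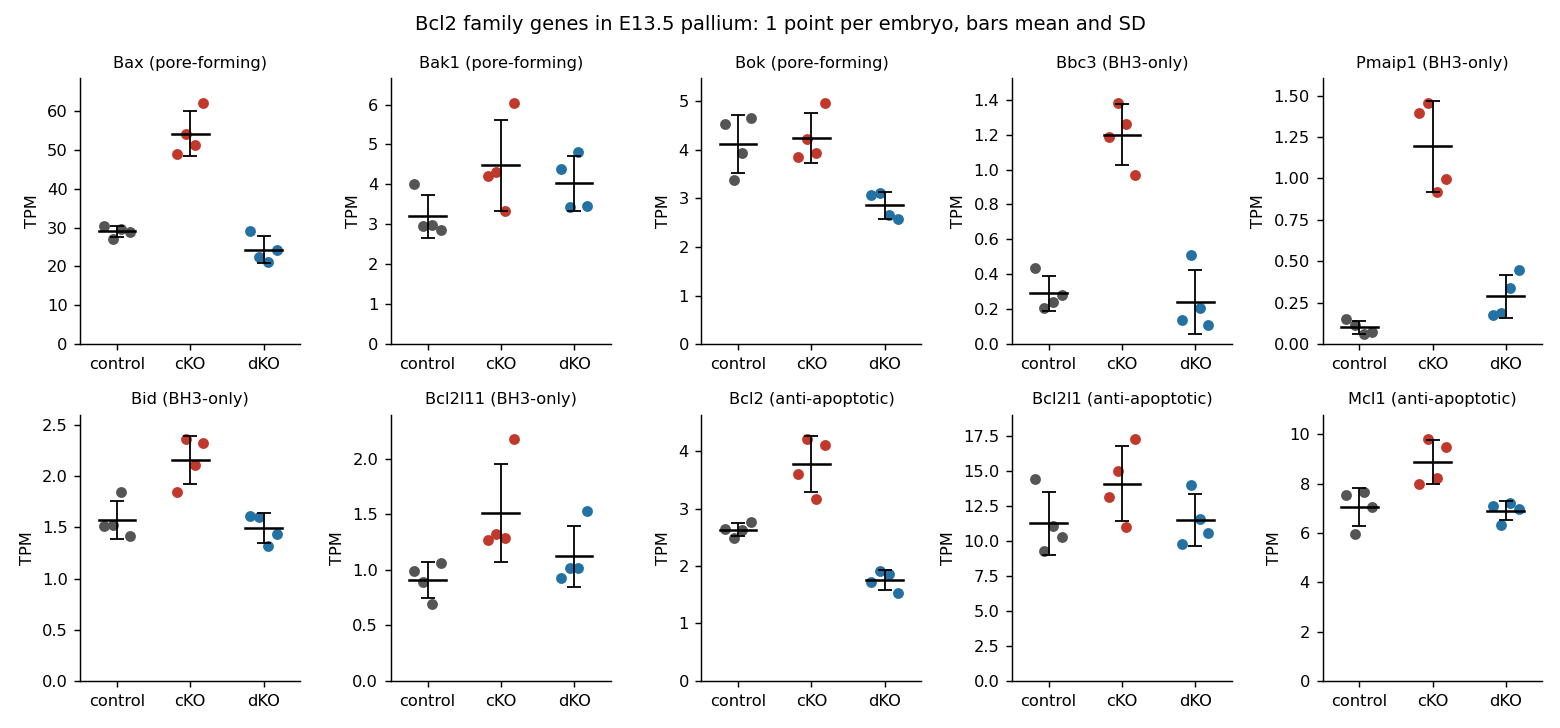
TPM of each of the 10 Bcl2 family genes in every embryo (points, 4 per genotype) with the mean and SD (bars), 1 panel per gene with its own linear y axis from 0. In Bax, Bbc3, Pmaip1, Bcl2, Bid and Mcl1 all 4 cKO embryos lie above all control and dKO embryos. In Bcl2 and Bok all 4 dKO embryos lie below all control embryos.

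In cKO against control, Bax, Bbc3 and Pmaip1 rose under every scaling run for each. Bax rose to 187% of its control level, Bbc3 4.13-fold and Pmaip1 11.8-fold in mean TPM as deposited, which carries the common shift. Bcl2, Bid, Bcl2l11 and Mcl1 rose as deposited by 0.30 to 0.39 on the log2 scale, beside 0.25 for the median gene, and none of these 4 was called after centring. Bak1, Bok and Bcl2l1 were not called. Over all 39624 genes above 0 in any embryo, 5 of the 10 members were called higher (Bax, Bbc3, Pmaip1, Bcl2 and Bid) and none lower, beside 11.0% of those genes called higher. Only 11764 of the 39624 genes averaged 1 TPM or more, against 8 of the 10 members. Shares over all genes above 0, here and below, are therefore not shares of genes at like levels. Bbc3 and Pmaip1 average under 1 TPM and are taken from the fit of all genes above 0 throughout. With the libraries rescaled by their median ratio to the mean library, Bax, Bbc3 and Pmaip1 were called, 3 of 10 beside 1.50%. Among the 8 members that averaged 1 TPM or more, 5 were called higher (Bax, Bid, Bcl2l11, Bcl2 and Mcl1), beside 34.3% of all tested genes higher and 1.09% lower. Bcl2l11 passed that filter through the mutant libraries and was not called over all genes above 0 (adjusted p = 0.0717), so the count of 5 of 8 is a description. The median change of the 8 was 0.33, beside 0.25 over all genes. All 4 cKO embryos lay above all 4 controls in these 5 members, beside 32.7% of tested genes. After centring, 1 of the 8 was called higher, Bax, beside 3.72% of all tested genes, and after protein-coding rescaling 2 were, Bax and Bcl2, beside 11.3%. The count of 5 called of 8 fell to 2, Bax and Bcl2, when control embryo 2, control embryo 4, cKO embryo 2 or cKO embryo 4 was left out.

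Bcl2 and Bok fell in dKO against control, and the other members tested were not called. Bcl2 stood at 66.9% and Bok at 69.4% of the control mean. These were 2 of 8 tested members, while 3.40% of all tested genes were called lower and 1.79% higher. Both were also called after centring, beside 4.69% of tested genes called lower, and after protein-coding rescaling, beside 3.74%. The median change of the 8 was -0.03, beside -0.01 over all genes. All 4 dKO embryos lay below all 4 controls in Bcl2 and Bok, beside 8.44% of tested genes. In the fit of all 39624 genes as deposited, Bcl2 alone was called lower, beside 0.669%, and after median-ratio rescaling Bcl2 and Bok were, beside 0.964%. As deposited, no member was called without control embryo 3, control embryo 4 or dKO embryo 4, and Bcl2 alone was called without control embryo 1, cKO embryo 2 or dKO embryo 3. After centring, Bcl2 and Bok were called whichever embryo was left out.

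In dKO against cKO, Bax, Bbc3, Pmaip1 and Bcl2 fell under every scaling run for each. Bok, Bid and Mcl1 fell as deposited by 0.32 to 0.44, and none of these 3 was called after centring. As deposited, 5 of the 8 tested members were called lower and none higher, while 38.8% of all tested genes were called lower and 0.612% higher. The median change of the 8 was -0.33, beside -0.26 over all genes. All 4 dKO embryos lay below all 4 cKO embryos in the 5 called members, beside 32.8% of tested genes. After centring, Bax and Bcl2 were called, beside 3.83% of genes called lower, and after protein-coding rescaling Bax, Bcl2 and Bok were, beside 8.28%. In the fit of all 39624 genes, 7 of 10 members were called lower, beside 14.5%, and after median-ratio rescaling 4 of 10 were (Bax, Bbc3, Pmaip1 and Bcl2), beside 1.67%. Both shares are again over genes that mostly average under 1 TPM. The comparisons with control share the same 4 control embryos, and both comparisons of cKO share the same 4 mutant embryos, so they are given side by side and are not independent.

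**Figure D3:**
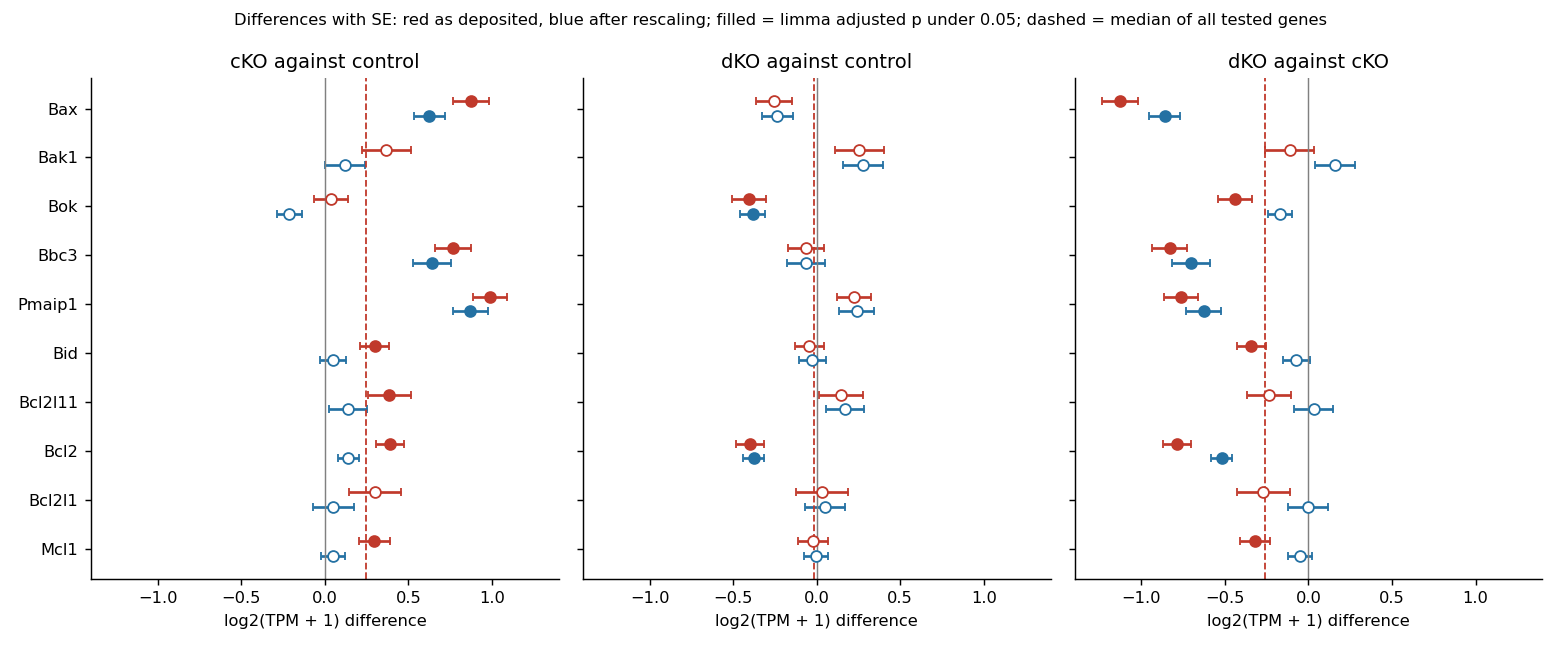
Change of each Bcl2 family gene in the 3 comparisons on the log2(TPM + 1) scale (x axis), as deposited (red) and after the common shift was removed (blue; median-shift centring, or median-ratio rescaling of all genes above 0 for Bbc3 and Pmaip1), with bars for the standard error. Filled points are called at an adjusted p under 0.05, and the dashed line is the median of all tested genes. Bax, Bbc3 and Pmaip1 are filled in both colours in the left and right panels, and Bcl2 and Bok in the middle panel.

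Among the pore formers, Bax, which moves from the cytosol to mitochondria and opens the pore, lies at chr7:45461697-45466898 on the minus strand (GRCm38, the assembly of mm10, as are all gene positions below). Its levels were 30.4, 26.9, 29.7 and 28.9 TPM in control embryos 1 to 4, 48.9, 54.1, 51.3 and 62.1 TPM in cKO embryos 1 to 4, and 29.1, 22.5, 21.2 and 24.3 TPM in dKO embryos 1 to 4. All 4 cKO embryos lay above all 8 others, and the control and dKO embryos overlapped. Bax rose in cKO against control by 0.87 (SE 0.108, limma adjusted p = 0.000269), and by 0.62 after centring (adjusted p = 0.00162). It fell in dKO against cKO by 1.13 (adjusted p = 5.28e-05), and by 0.86 after centring (adjusted p = 0.000278). Both calls held whichever embryo was left out. Among all tested changes, Bax lay at percentile 97.94 in cKO against control. The change of Bax in dKO against control was -0.25 (adjusted p = 0.207), and its mean was 24.3 ± 3.47 TPM against 29.0 ± 1.51 in control (SD, n = 4). After centring and without dKO embryo 1, the highest of its group, Bax was called lower in dKO than in control, at -0.33 (adjusted p = 0.0139).

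Bak1, the pore former that sits constitutively in the outer membrane, lies at chr17:27019810-27029009 on the minus strand. It stood at 4.00, 2.97, 2.98 and 2.86 TPM in control, 4.21, 4.32, 3.34 and 6.05 TPM in cKO, and 4.40, 3.43, 4.80 and 3.47 TPM in dKO. The 3 genotypes overlapped. The change of Bak1 was 0.37 in cKO against control (adjusted p = 0.0665) and 0.26 in dKO against control (adjusted p = 0.364). Without control embryo 1, the highest of its group, cKO against control was called at 0.45 (adjusted p = 0.0389), and without cKO embryo 3 at 0.47 (adjusted p = 0.0278). After centring, no embryo left out gave a call of Bak1. Of the Bak1 exon bases, 18.2% and 7.35% lie opposite exons of separate annotated entries of Ggnbp1. The use of strand in counting is not given, so the level of Bak1 is uncertain.

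Bok, a pore former that the guardians restrain less than the others, lies at chr1:93685660-93695764 on the plus strand. It stood at 4.52, 3.37, 3.93 and 4.64 TPM in control, 3.85, 4.21, 3.93 and 4.96 TPM in cKO, and 3.07, 3.11, 2.66 and 2.57 TPM in dKO. All 4 dKO embryos lay below all 8 others, while control and cKO overlapped. Bok fell in dKO against control by 0.40 (SE 0.1003, adjusted p = 0.0377), and by 0.38 after centring (adjusted p = 0.00801). As deposited the call held in 6 of 12 fits that left out 1 embryo, and after centring in 12 of 12. Bok fell in dKO against cKO by 0.44 as deposited (adjusted p = 0.00613), and the change was -0.17 after centring (adjusted p = 0.179). Bok was the tested member with the lowest change in cKO against control, 0.04 as deposited and -0.21 after centring (adjusted p = 0.776 and 0.110), so its sign depended on the scaling.

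The BH3-only genes were the least abundant role, with summed levels of 2.87 ± 0.153 TPM in the controls, 6.07 ± 0.498 in cKO and 3.14 ± 0.332 in dKO (SD, n = 4). Pmaip1 encodes Noxa, which neutralises Mcl1, and lies at chr18:66458533-66465565 on the plus strand. It stood at 0.155, 0.113, 0.0623 and 0.0745 TPM in control, 1.39, 1.46, 0.920 and 0.999 TPM in cKO, and 0.175, 0.190, 0.337 and 0.450 TPM in dKO. The 3 genotypes did not overlap: every cKO embryo lay above every dKO embryo, and every dKO embryo above every control embryo. In the fit of all genes above 0, Pmaip1 rose in cKO by 0.99 (SE 0.101, adjusted p = 0.000329) and fell in dKO against cKO by 0.76 (adjusted p = 0.00140). In all 4 other settings run for Pmaip1, among them median-ratio rescaling, both changes were called. The rise was 0.87 or more and the fall 0.63 or more. For dKO against control the change was 0.22 and was not called (adjusted p = 0.406). Among the 11764 genes that averaged 1 TPM or more, 5.14% had all 4 dKO embryos above all 4 control embryos. The log2(TPM + 1) scale understates changes at such low levels.

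Bbc3 encodes Puma, which binds all the guardians, and lies at chr7:16308393-16318205 on the plus strand. It stood at 0.434, 0.206, 0.243 and 0.279 TPM in control, 1.19, 1.38, 1.26 and 0.969 TPM in cKO, and 0.1402, 0.512, 0.208 and 0.110 TPM in dKO. The cKO embryos lay above all others, and control and dKO overlapped, with dKO embryo 2 the highest of those 8. Bbc3 rose in cKO by 0.77 (SE 0.107, adjusted p = 0.00203 over all genes above 0) and fell in dKO against cKO by 0.83 (adjusted p = 0.00125). After median-ratio rescaling the rise was 0.64 (adjusted p = 0.0129). The calls of Bbc3 and Pmaip1 held whichever embryo was left out. Against control, the dKO change of Bbc3 was -0.06 (adjusted p = 0.864).

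Bid, which is cleaved by caspase-8 and so links death receptors to mitochondria, lies at chr6:120891930-120916853 on the minus strand. It stood at 1.51, 1.52, 1.846 and 1.42 TPM in control, 1.849, 2.36, 2.11 and 2.32 TPM in cKO, and 1.61, 1.604, 1.31 and 1.44 TPM in dKO. Every cKO embryo lay above every control embryo, with cKO embryo 1 just above control embryo 3. Bid rose in cKO by 0.30 as deposited (adjusted p = 0.0220), and the change was 0.05 after centring (adjusted p = 0.790). The call in cKO was lost without control embryo 2 or 4 or cKO embryo 2 or 4 (adjusted p from 0.0516 to 0.0647). Bid fell in dKO against cKO by 0.34 as deposited (adjusted p = 0.0102), and the change after centring was -0.07 (adjusted p = 0.620). Of the exon bases of Bid, 17.7% lie opposite exons of Bcl2l13, and the sources used here do not say whether the counting used strand, so its level is uncertain.

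Bcl2l11 encodes Bim, the BH3-only protein that responds to loss of survival factors, and lies at chr2:128126038-128162547 on the plus strand. It stood at 0.994, 0.895, 0.692 and 1.06 TPM in control, 1.27, 1.33, 1.29 and 2.18 TPM in cKO, and 0.930, 1.02, 1.01 and 1.53 TPM in dKO. The cKO embryos lay above the controls, and embryo 4 was the highest in both mutant groups. Bcl2l11 rose in cKO by 0.39 as deposited (adjusted p = 0.0386), and the change was 0.14 after centring (adjusted p = 0.550). Without cKO embryo 4 it was 0.27 as deposited (adjusted p = 0.1001), and the call was also lost without control embryo 2, 3 or 4 or cKO embryo 2 (adjusted p from 0.0524 to 0.0945). In dKO against control the change of Bcl2l11 was 0.15 (adjusted p = 0.594), and in dKO against cKO -0.24 (adjusted p = 0.157). It passed the filter of 1 TPM through the mutant libraries, since its control mean was 0.910 TPM.

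Among the anti-apoptotic genes, Bcl2, the founding member of the family, lies at chr1:106538178-106714274 on the minus strand. It stood at 2.64, 2.49, 2.63 and 2.77 TPM in control, 3.61, 4.21, 3.17 and 4.11 TPM in cKO, and 1.72, 1.92, 1.86 and 1.53 TPM in dKO. The 3 genotypes did not overlap, with cKO highest and dKO lowest, and dKO lay below control in all 4 embryos. Bcl2 fell in dKO against control by 0.40 (adjusted p = 0.0181), and by 0.38 after centring (adjusted p = 0.00424). As deposited this call was lost without control embryo 3 (adjusted p = 0.0522), control embryo 4 (0.0628) or dKO embryo 4 (0.0545), and after centring it held in 12 of 12 such fits. In cKO against control, Bcl2 rose by 0.39 as deposited (SE 0.0849, adjusted p = 0.00620) and by 0.27 after protein-coding rescaling (adjusted p = 0.0320), while the change after centring was 0.14 (adjusted p = 0.227). In dKO against cKO it fell by 0.79 (adjusted p = 0.000128), and by 0.52 after centring (adjusted p = 0.000775). Of its exon bases, 6.09% lie opposite the low antisense gene D630008O14Rik.

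Mcl1, a short-lived guardian that Noxa targets, lies at chr3:95658788-95663176 on the plus strand. It stood at 7.53, 5.94, 7.66 and 7.05 TPM in control, 7.998, 9.79, 8.23 and 9.48 TPM in cKO, and 7.08, 6.33, 7.21 and 6.97 TPM in dKO. The cKO embryos lay above all others as deposited. Mcl1 rose in cKO by 0.30 (adjusted p = 0.0275) and fell in dKO against cKO by 0.32 (adjusted p = 0.0176), and after centring these changes were 0.05 and -0.05 (adjusted p = 0.762 and 0.710). The call in cKO was lost without control embryo 2 or 4 or cKO embryo 2 or 4 (adjusted p from 0.0576 to 0.0850), and that in dKO against cKO without cKO embryo 2 (adjusted p = 0.0595). The change of Mcl1 in dKO against control was -0.02 (adjusted p = 0.926).

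Bcl2l1, which encodes Bcl-xL, lies at chr2:152780668-152831728 on the minus strand. It stood at 14.4, 9.28, 11.1 and 10.3 TPM in control, 13.2, 15.0, 11.0 and 17.3 TPM in cKO, and 9.77, 14.0, 11.6 and 10.5 TPM in dKO. All 3 genotypes overlapped. Its changes were 0.30 in cKO against control (adjusted p = 0.141), 0.03 in dKO against control (adjusted p = 0.942) and -0.27 in dKO against cKO (adjusted p = 0.177), and no setting or left-out embryo gave a call.

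Ratios between family members within an embryo do not depend on the scaling of the library, and they are given as a description. Bax over Mcl1 was 4.14 ± 0.282 in the controls, 6.11 ± 0.432 in cKO and 3.52 ± 0.481 in dKO (SD, n = 4 per genotype), and the lowest cKO embryo, at 5.52, lay above the highest control embryo, at 4.54. Bax over Bcl2l1 was 2.63 ± 0.356, 3.90 ± 0.519 and 2.18 ± 0.609 in the same order, so both ratios had a higher mean in cKO and a lower mean in dKO than in the controls.

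Bax over Bcl2 was 11.0 ± 0.488 in the controls, 14.4 ± 1.505 in cKO and 14.0 ± 2.83 in dKO. The embryos of both mutants overlapped in this ratio, with Bax not called and Bcl2 called lower in dKO against control. Bcl2 over Mcl1 was 0.376 ± 0.0362 in the controls, 0.425 ± 0.0281 in cKO and 0.256 ± 0.0354 in dKO, and the highest dKO embryo, at 0.304, lay below the lowest control embryo, at 0.343. Bok over Mcl1 was 0.584 ± 0.0604, 0.478 ± 0.0384 and 0.416 ± 0.0592 in the same order.

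Bcl2l1 over Mcl1, the ratio of the most abundant guardians, was 1.595 ± 0.220 in the controls, 1.58 ± 0.204 in cKO and 1.68 ± 0.370 in dKO. Bax over Bok was 7.13 ± 0.793 in the controls, 12.8 ± 0.229 in cKO and 8.54 ± 1.13 in dKO. Summed over roles, BH3-only over anti-apoptotic TPM was 0.139 ± 0.0122 in the controls, 0.229 ± 0.0164 in cKO and 0.157 ± 0.0198 in dKO. All pro-apoptotic over all anti-apoptotic TPM was 1.89 ± 0.1398, 2.59 ± 0.203 and 1.72 ± 0.303 in the same order, sums in which Bax was the largest term.

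**Figure D4:**
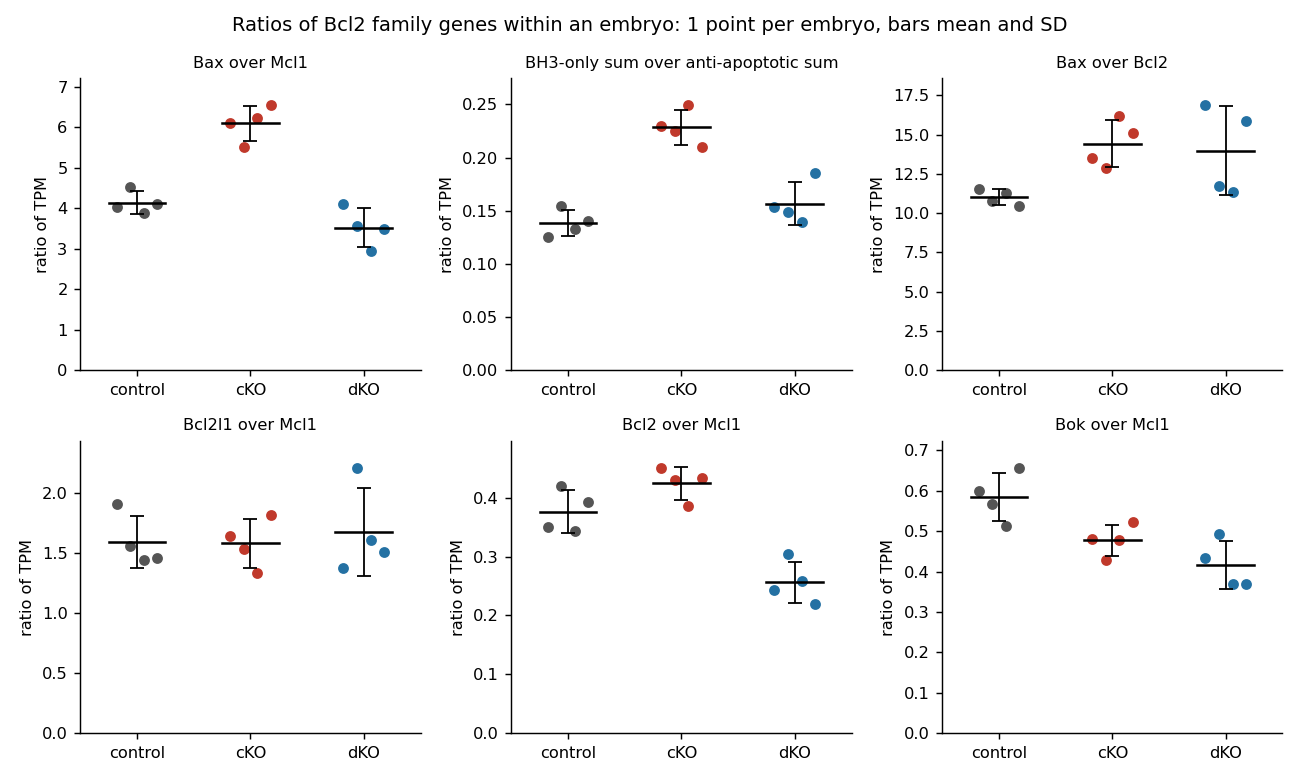
Ratios of TPM between Bcl2 family genes or role sums within each embryo (points, 4 per genotype, with the mean and SD), 1 panel per ratio with its own linear y axis from 0. Bax over Mcl1 is higher in all 4 cKO embryos than in all other embryos, and Bcl2 over Mcl1 is lower in all 4 dKO embryos than in all other embryos.

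The other genes of the pathway were described through 50 listed genes in 4 lists. All 50 were in the files and 39 had a mean of at least 1 TPM. In cKO against control, 17 of the 39 were called higher and none lower, beside 34.3% and 1.09% of all tested genes, and their median change was 0.30 beside 0.25. By list, 1 of 6 other Bcl2 family genes, 5 of 13 genes acting downstream of the pore, 3 of 8 genes of mitochondrial channels and fission, and 8 of 12 regulators of Bcl2 family proteins were called higher. After centring 5 of the 39 were called higher, beside 3.72% of genes, and they were the 5 with the largest changes as deposited. Apaf1, the scaffold of the apoptosome, rose by 0.77 (adjusted p = 0.000517), from 4.22 ± 0.509 TPM to 7.92 ± 0.998. Ei24, a gene known as induced by p53, rose by 0.72 (adjusted p = 0.000200), with means of 20.8 and 35.1 TPM. Foxo3, a transcription factor that activates Bcl2l11, rose by 0.74 (adjusted p = 0.00355), with means of 2.02 and 4.02 TPM. The kinases Mapk8 and Mapk9 (JNK1 and JNK2), which phosphorylate Bcl2 family proteins, rose by 0.85 and 0.68 (adjusted p = 0.000702 and 0.00128). Among the other Bcl2 family genes, the BH3-only Bmf rose as deposited by 0.51 (adjusted p = 0.00696), and its change after centring was 0.26 (adjusted p = 0.195).

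For dKO against control, limma called none of the 39 as deposited, and 6 had an unadjusted p under 0.05, 1 higher and 5 lower. After centring 2 were called lower, beside 4.69% of genes. These were Apaf1, at -0.29 (adjusted p = 0.0394), and Xiap, a caspase inhibitor, at -0.27 (adjusted p = 0.0443). In dKO against cKO, 23 of the 39 were called lower and none higher, beside 38.8% and 0.612% of all genes. Apaf1 fell by 1.08 (adjusted p = 5.64e-05), Foxo3 by 0.79 (adjusted p = 0.00212) and Ei24 by 0.73 (adjusted p = 0.000209). Mapk9 and Mapk8 fell by 0.59 and 0.57 as deposited (adjusted p = 0.00213 and 0.00430). After centring 4 were called lower, namely Apaf1, Ei24, Foxo3 and Fbxw7, a ubiquitin ligase subunit that targets Mcl1, beside 3.83% of genes.

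**Figure D5:**
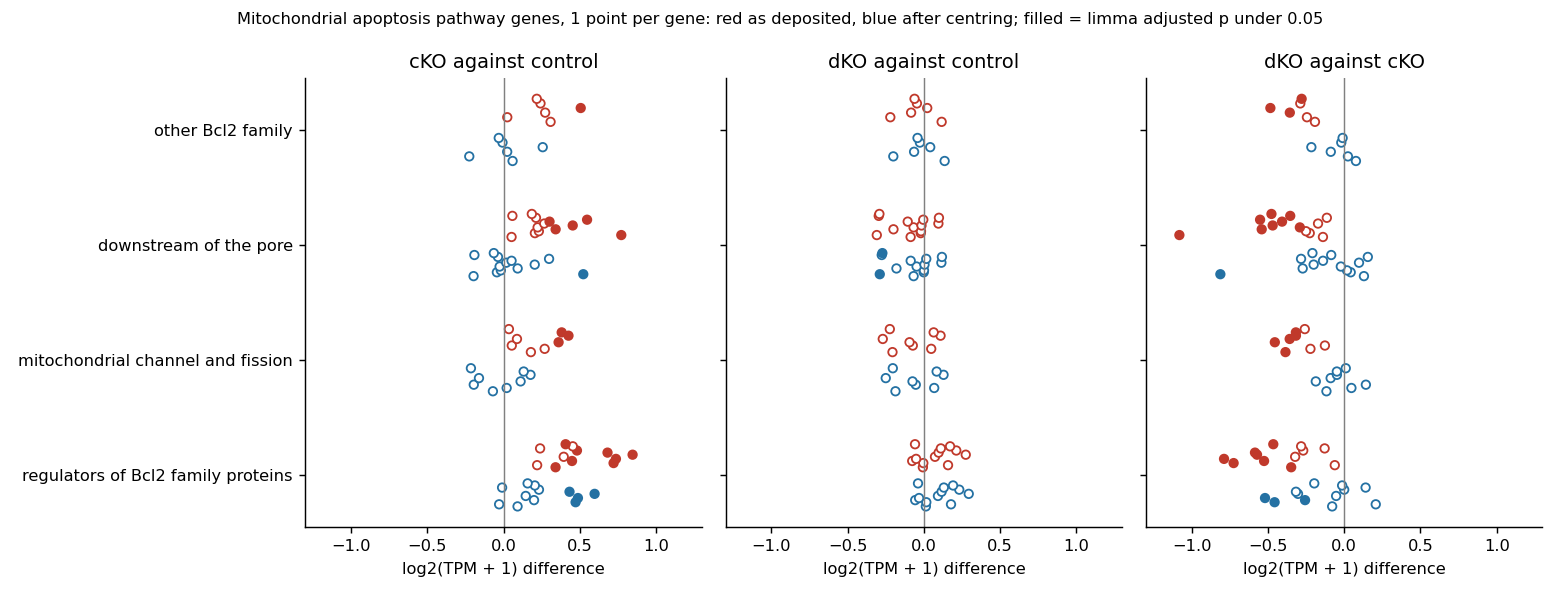
Change of the 39 tested pathway genes in the 3 comparisons on the log2(TPM + 1) scale, grouped by list, as deposited (red) and after median-shift centring (blue). Filled points are genes called at an adjusted p under 0.05, and the grey line is at 0. Red filled points number 17 in cKO against control, 0 in dKO against control and 23 in dKO against cKO. Blue filled points number 5, 2 and 4 in the same order, and the filled points of each panel lie on 1 side.

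The genes most like Bax across the 12 embryos were ranked by Pearson's r of log2(TPM + 1), as a description, since the 12 points share 3 genotypes and the common shift. The 5 closest were Aen (r = 0.986), Mdm2 (0.983), Vps36 (0.975), Kifc5b (0.972) and Cpt1c (0.970). Aen, an exonuclease gene known as a p53 target, stood at 3.53 ± 0.353 TPM in the controls, 9.31 ± 0.991 in cKO and 2.88 ± 0.270 in dKO (SD, n = 4). Mdm2, the ubiquitin ligase that degrades p53, stood at 14.8 ± 0.443, 27.9 ± 1.52 and 12.4 ± 2.03 TPM. Cpt1c, a carnitine palmitoyltransferase of neurons, stood at 3.03 ± 0.175, 7.81 ± 1.15 and 2.33 ± 0.135 TPM. All 5 had RefSeq promoter windows, Aen and Mdm2 had a single p53 site without mismatch, and 0 had a full-site match. Of the 40 listed pathway genes with windows, 5 had a single site. A full-site match was found in 1, Birc5, which was not called as deposited in any comparison. The sites of Aen and Mdm2 are shown to set beside that of Bax, with 10 bases on each side and the site in capitals. They lie at chr7:78895927-78895956 on the plus strand for Aen and chr10:117710925-117710954 on the minus strand for Mdm2.

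Aen site: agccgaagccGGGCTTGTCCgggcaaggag
Mdm2 site: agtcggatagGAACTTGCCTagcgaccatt

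Markers of other cells moved with the genotypes. The sums and counts of higher markers here and below are of TPM as deposited. They carry the common shift, in which the median tested gene was 0.25 higher in cKO than in control on the log2(TPM + 1) scale. The summed TPM of 7 microglial markers was 10.1 to 12.2 in control, 39.8 to 55.9 in cKO and 11.9 to 16.0 in dKO, with all 7 higher in the cKO mean than in control and none at 0 in any genotype's mean. That of 5 endothelial markers was 7.84 to 10.8, 16.2 to 21.5 and 10.3 to 16.7 in the same order, with 5 of 5 higher in cKO. Ventral telencephalic markers, 6 of 6 higher in cKO, summed to 1.42 to 2.05, 2.78 to 4.27 and 1.48 to 3.15. Mesenchymal markers, 4 of 5 higher in cKO and 5 of 5 in dKO, summed to 22.7 to 39.4, 40.9 to 49.1 and 35.8 to 52.5. Erythroid markers, 8 of 8 higher in cKO and 4 of 8 in dKO, summed to 2050 to 3111, 2505 to 3468 and 2229 to 2856.5.

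Within the neural lineage, 8 neuronal markers summed to 229 to 253 TPM in control, 300 to 368 in cKO and 157 to 240 in dKO, and 8 of 8 were higher in the cKO mean, while in dKO 5 were lower and 3 higher than in control. The sum of 8 pallial markers was 163 to 178, 164 to 189 and 105 to 157. In cKO 6 of 8 had a lower mean than in control, and in dKO also 6 of 8. The neuronal and pallial lists share Neurod6 and Tbr1, and Neurod6, a gene of young excitatory neurons at 94.4 TPM in control and 61.0 in dKO, made up most of the drop of both sums. Members with a higher mean in dKO than in control were Tbr1 (2.86 TPM in control and 3.30 in dKO), in both lists, the neuronal Stmn2 and Map2, and the pallial Emx2. Radial glial markers summed to 164 to 187, 203 to 232 and 176 to 201, with Fabp7 at 109 TPM in control and 149 in cKO, while 4 of the 7, namely Pax6, Sox2, Hes1 and Hes5, had a lower mean in cKO than in control. Proliferation markers summed to 369 to 432, 317 to 458 and 270 to 335, with 5 of 6 lower in the cKO mean and 6 of 6 lower in dKO. Intermediate progenitor markers summed to 32.8 to 45.4, 32.1 to 43.0 and 29.8 to 36.3, with 2 of 4 lower in cKO and 3 of 4 in dKO.

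Bax, Bbc3 and Pmaip1 were high in cKO. The microglial, endothelial, ventral telencephalic, neuronal, radial glial and mesenchymal sums lay above control there in every embryo. The mesenchymal sum also had a higher mean in dKO (44.5 TPM) than in control (27.9 TPM), and Bax and Bbc3 were not called higher in dKO. Bcl2 and Bok were low in dKO, where the proliferation sum lay below control in every embryo, with 6 of 6 markers lower in the mean. The pallial sum also lay below control in every dKO embryo, with 6 of 8 markers lower and 2 higher. The part of these cell types in the changes of the Bcl2 family was not tested.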

How the data were processed

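HISAT2 and mm10 are named, without role or order, per the submitters' processing notes. The quantification tool, the annotation and the use of strand are not given in the sources used here. The deposited values, 1 table per embryo, carry no header and were read as TPM, because every table sums to 1 fixed total and holds fractions. TPM made by the authors keeps no depth. Total RNA tables include short structural RNAs, which take up a large share of each total.

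Tests used limma 3.58.1 (R 4.3.3, eBayes with trend) on log2(TPM + 1), with the 3 genotypes in 1 fit of the 11764 genes that averaged 1 TPM or more. Bbc3 and Pmaip1 fall under that filter and came from a fit of the 39624 genes above 0. The procedure was tested on simulated data. Alternatives were a pseudocount of 0.1, a filter of none or 5 TPM, median-shift centring, protein-coding rescaling, quantile normalization, separate fits of each pair of genotypes, a replicate block, a required log2 change of 1, and each embryo left out in turn. Median-ratio rescaling and the combinations with no filter or with centring were added after the data were seen. Coordinates and gene types came from GENCODE M21, in which 54106 of 54735 symbols were found, and promoters from RefSeq (GRCm38.p6). All 10 members are named, with the 5 largest called changes of the pathway lists per direction and the 5 genes most like Bax. The members and lists were chosen with earlier results of these data known. Plots were drawn with matplotlib 3.10.9.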

Additional observations from a re-analysis of the deposited data

Results flagged for a closer look

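A single embryo stood apart from the other 3 of its genotype in 3 of the 36 groups of 4 values examined, where chance alone flags about 1 in 20, or 1.8 of 36. Bak1 in control embryo 1, at 4.00 TPM, was separated from its nearest neighbour by 0.89 of the range of its group, and without it Bak1 was called higher in cKO (0.45, limma adjusted p = 0.0389). Bcl2l11 in cKO embryo 4, at 2.18 TPM, was separated by 0.936 of the range, and without it the change in cKO was 0.27 (adjusted p = 0.1001). Bcl2l11 in dKO embryo 4, at 1.53 TPM, was separated by 0.856 of the range, and without it the change in dKO against control was 0.06 (adjusted p = 0.861).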

How the results depend on the processing

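The number of Bcl2 family members called in cKO against control was 5 as deposited, 2 at a mean of at least 5 TPM, 1 after centring, 2 after protein-coding rescaling, 1 after quantile normalization and 0 at a minimum log2 change of 1. It ranged from 2 to 6 with 1 embryo left out. In dKO against control it was 2, with 1 under no filter, 0 at 5 TPM, 1 with 2 groups only, 0 at the minimum change and 0 to 2 with 1 embryo left out. In dKO against cKO it was 5, with 2 at 5 TPM, 2 after centring, 3 after protein-coding rescaling, 2 after quantile normalization, 1 at the minimum change and 4 to 5 with 1 embryo left out. Pathway genes called numbered 17, 0 and 23 in the 3 comparisons. In cKO against control they were 10 at 5 TPM, 5 after centring, 9 after protein-coding rescaling, 5 after quantile normalization and 0 at the minimum change (14 to 20 with 1 embryo left out). In dKO against control they were 1 at a pseudocount of 0.1, 2 after centring, 1 after quantile normalization and 0 to 1 with 1 embryo left out. In dKO against cKO they were 13, 4, 9, 5 and 1 in the order of cKO against control (17 to 25 with 1 embryo left out). A filter of 5 TPM removes low members from the test, and for the other settings the cause was not tested. Over all genes, calls higher and lower numbered 4035 and 128 in cKO against control, 438 and 348 after centring and 1334 and 205 after protein-coding rescaling. In dKO against control they numbered 210 and 400, 440 and 552, and 640 and 440 in the same order, and in dKO against cKO 72 and 4564, 247 and 451, and 165 and 974. Embryos with the same replicate number did not deviate together (r from -0.0954 to 0.0745 over 12 pairs, against -0.1601 to 0.1416 over 36 other pairs). With 4 embryos per genotype, this cannot exclude that embryos of the same number share a litter or batch. With the replicate block, 3, 0 and 5 members and 15, 0 and 20 pathway genes were called, and with the replicate block and centring 1, 2 and 2 members and 4, 0 and 2 pathway genes. Directions reversed only in changes that were not called. Bok in cKO against control (0.04) was -0.21 after centring with or without the block, -0.089 after protein-coding rescaling, -0.24 after quantile normalization and -0.036 to 0.087 with 1 embryo left out. Bak1 in dKO against cKO (-0.11) was 0.16 after centring with or without the block, 0.071 after protein-coding rescaling, 0.19 after quantile normalization and -0.22 to 0.016 with 1 embryo left out. Bcl2l11 in dKO against cKO (-0.24) was 0.030 after centring with or without the block and 0.047 after quantile normalization, and centred it ran from -0.067 to 0.098 with 1 embryo left out. Bcl2l1 in dKO against cKO (-0.27) was 0.0097 after quantile normalization and ran from -0.080 to 0.058 when centred with 1 embryo left out. With 1 embryo left out, dKO against control ran from -0.062 to 0.15 for Bcl2l1 (0.03), -0.074 to 0.0043 for Bid (-0.05) and -0.092 to 0.015 for Mcl1 (-0.02), and when centred from -0.030 to 0.15, -0.059 to 0.021 and -0.048 to 0.045. Mcl1 was 0.037 after protein-coding rescaling, and Bcl2l1 in cKO against control ran from -0.0025 to 0.15 when centred. Of 873 alternative values of the members' changes, 39 were reversed. In this count, centred values with 1 embryo left out were set against the centred change and not the deposited one. Such centred values ran from -0.26 to -0.17 for Bok in cKO against control, and from 0.081 to 0.24 for Bak1 in dKO against cKO. Their signs were opposite to the deposited changes, and they are not in the count. Depth is unknown in TPM, so the counting error of Bbc3 and Pmaip1 cannot be given.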

Other observations

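Of the 14 other Bcl2 family genes, 8 had a mean under 1 TPM and were tested only in the limma fit of all genes above 0. There, 2 were called higher in cKO against control, beside 11.0% of the 39624 genes, and 2 lower in dKO against cKO, beside 14.5%. In dKO against control 0 were called (0 at an unadjusted p under 0.05). After median-ratio rescaling, 1 was called higher in cKO against control, beside 1.50%, 0 in dKO against control, and 1 lower in dKO against cKO, beside 1.67%. Hrk, a BH3-only gene of neurons, stood at 0.212 ± 0.0267 TPM in the controls, 0.380 ± 0.0845 in cKO and 0.195 ± 0.0348 in dKO (SD, n = 4 per genotype), and rose in cKO as deposited by 0.18 (adjusted p = 0.0495), with a change of 0.11 after median-ratio rescaling (adjusted p = 0.345). Bcl2a1b, an anti-apoptotic gene known from blood-derived cells, stood at 0.0415 ± 0.0486 TPM in the controls, 0.382 ± 0.0680 in cKO and 0.0309 ± 0.0441 in dKO, and rose in cKO by 0.41 (adjusted p = 0.000633), or 0.35 after rescaling (adjusted p = 0.00380). It belongs to a family of near-identical copies, so its reads may be shared with Bcl2a1a and Bcl2a1d and its level is uncertain. Bik, another BH3-only gene, stood at 0.172 ± 0.0579, 0.184 ± 0.133 and 0.149 ± 0.114 TPM, with overlapping genotypes. Downstream of the pore, the initiator caspase gene Casp9 was also under the filter, at 0.679 ± 0.200, 0.846 ± 0.181 and 0.653 ± 0.193 TPM. Neither Bik nor Casp9 was called in any comparison of that fit.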
